A study of Mus musculus with 37 samples.

Results

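Mammary tissue collected 4 weeks after 100 cGy of gamma rays was compared with sham-irradiated tissue of the same week, on 3 gamma and 4 sham Affymetrix arrays of the 37 in the study. The arrays were chosen by their titles, and all genes were examined. All mice were BALB/c females, sham-irradiated or irradiated at 10 weeks of age. Each mouse had earlier had 1 inguinal gland surgically cleared, and the intact gland of the other side was measured. The surgery, and the transport to the irradiation site and back before week 4, were shared by both groups. The other groups of the study were sham, gamma and silicon ions (Si) of 350 MeV/amu, at 30 or 10 cGy, at weeks 1, 4 and 12, with 3 arrays each. The labels call the arrays replicates without saying whether they came from separate mice or pooled glands, so a p-value here is set against the scatter of these samples, which may be technical.

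Gamma rays ionize sparsely and break DNA directly and through radicals. The breaks are marked by chromatin-binding proteins and signalled by the kinase ATM to p53, which switches on genes for cell-cycle arrest, repair and cell death. In the weeks after exposure the tissue response is known to pass to vessels, stroma and immune cells. The mammary gland is a branched epithelium of inner luminal and outer basal cells in a fat pad that also holds vessels, fibroblasts, a lymph node and, next to the gland, skeletal muscle of the body wall.

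The tissue matched its label. Keratin 8 (Krt8, luminal cells) lay at log2 levels of 10.67, 11.63 and 10.52 in gamma and 10.18 to 11.02 in sham, and the adipocyte hormone Adipoq lay at 11.52, 11.24 and 11.43 in gamma and 11.24 to 11.88 in sham. Ucp1, which defines brown fat, and the milk protein Wap did not pass the filter on low genes, a mean above the 30th percentile. Tissue mix varied widely within both groups. The muscle gene Myh4 lay at 5.22, 7.86 and 9.29 in gamma and at 3.81, 10.72, 11.82 and 9.86 in sham, and the T cell gene Cd3e at 8.68, 7.61 and 10.23 in gamma and at 4.42, 9.19, 5.39 and 8.97 in sham. In bulk tissue, fewer cells of a type and less RNA per cell cannot be told apart. Sham replicate 1 stood apart: it was the sham array farthest from the other sham arrays in 6872 of the 13174 genes tested, against 1816 to 2395 for each of the others. It had few muscle, lymphocyte and epithelial transcripts and many of fat synthesis and mitochondria. For the results that moved most when it was left out, the value without it is given as well.

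At week 4 no gene passed the test between gamma and sham. limma with Benjamini-Hochberg adjustment called 0 of the 13174 genes (0%), and the smallest adjusted p was 0.36. In all, 732 genes had an unadjusted p under 0.05 (5.56%), with 482 higher (3.66%) and 250 lower (1.9%) in gamma. With no effect at all, chance would put a share of 0.05 of genes under this threshold. Differences are log2 values, gamma minus sham, and the 5th and 95th percentiles over all genes were −0.29 and 0.37, with a median standard error of 0.15. In all, 29 genes were more than 2-fold higher and 54 more than 2-fold lower. All 3 gamma arrays lay above all 4 sham arrays for 336 genes (2.55%) and below them for 181 (1.37%), 3.92% in all. Of these, 168 (1.28%) and 77 (0.584%) also had an unadjusted p under 0.05. Chance alone also keeps 3 arrays apart from 4 in some genes, so a lack of overlap is a description and not evidence.

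The surplus of higher genes depended on the scaling and on sham replicate 1. Of the 732 genes, 65.8% were higher, but after quantile normalization of the deposited values 366 were higher and 382 lower (48.9% higher), and without sham replicate 1 the share was 55.1% of 421 genes. Of all genes tested 58% were above 0. The median over them was 0.035 and was 0.01 without sham replicate 1. The plot of all genes shows the higher side better filled, with 5 genes at the top.

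**Figure D1:**
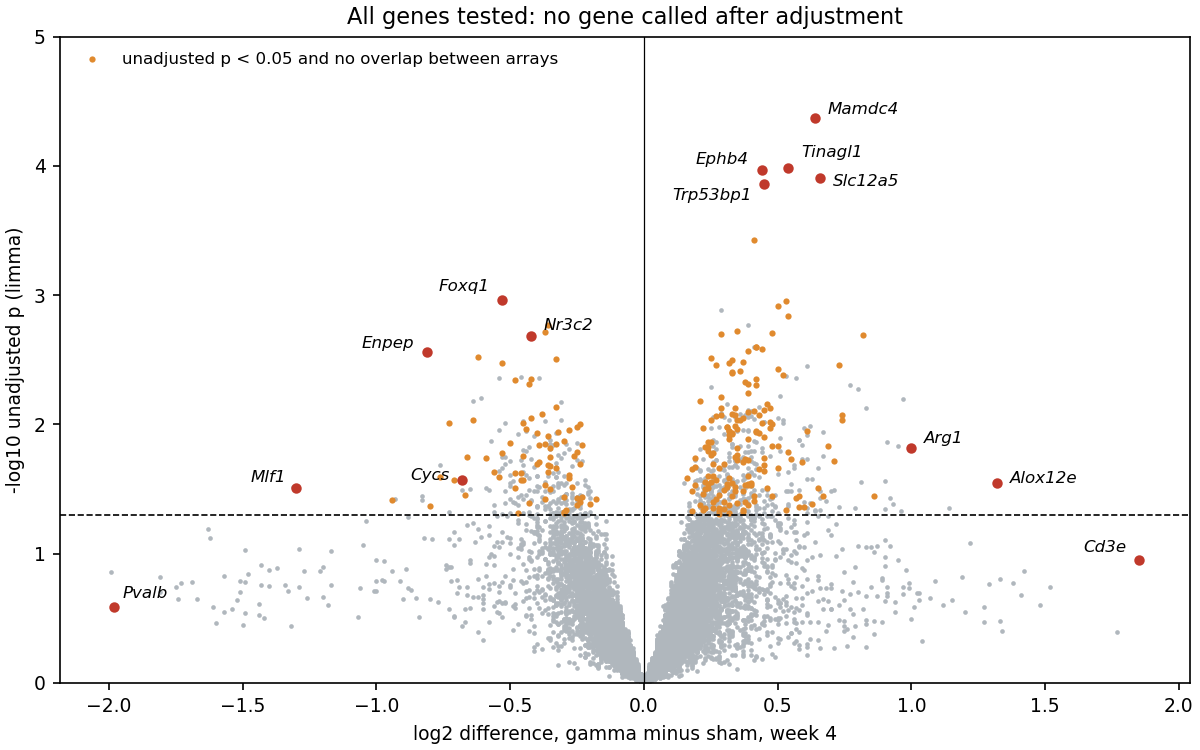
Log2 difference, gamma minus sham at week 4 (x axis), against −log10 of the unadjusted limma p (y axis) for the 13174 genes tested, 1 point per gene. Orange points are the 168 higher and 77 lower genes whose arrays do not overlap and whose unadjusted p lies under 0.05 (dashed line), red points are named genes. None passed adjustment, and the highest point is Mamdc4, at a difference of 0.64.

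The 5 genes with the smallest p were all higher in gamma, and their groups did not overlap. Mamdc4, whose product endotubin is known from endosomes of rat gut epithelium, lay at 4.99, 5.30 and 5.05 in gamma and at 4.60, 4.60, 4.43 and 4.27 in sham. It differed by 0.64 ± 0.13 (SE; 95% interval 0.37 to 0.91), a 1.56-fold difference, with an adjusted p of 0.36 by limma. Every gamma array was above every sham array, and the difference was 0.68 without sham replicate 1. Slc12a5, the potassium-chloride cotransporter of neurons, lay at 4.37, 4.70 and 4.71 in gamma and at 4.19, 3.71, 3.94 and 3.89 in sham, near the level of the filter (4.04). Trp53bp1, whose product binds chromatin at DNA breaks, lay at 7.05, 7.21 and 7.09 in gamma and at 6.46, 6.68, 6.81 and 6.71 in sham. Its lowest gamma array was above its highest sham array, it differed by 0.45 ± 0.10 (1.37-fold, adjusted p = 0.36), and by 0.38 without sham replicate 1, which was its lowest sham array. The other 2 of the 5, Tinagl1 and Ephb4, are genes of blood vessels.

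Among 32 tested genes of endothelium and vessels, 5 had an unadjusted p under 0.05, all higher (against 3.66% of all genes), and 0 were called. This list, like the others, was chosen with earlier results of these data known, so the share is not independent evidence. The list as a whole was not shifted: 17 members were above 0 and 15 below, with a median of 0.01, against 0.035 over all genes. Tinagl1, a matrix protein bound to integrins, lay at 8.98, 9.38 and 8.98 in gamma and at 8.42, 8.43, 8.85 and 8.60 in sham, and differed by 0.54 ± 0.12 (1.45-fold, adjusted p = 0.36). Ephb4, the receptor kinase of veins, lay at 7.46, 7.80 and 7.34 in gamma and at 7.02, 7.22, 7.18 and 6.96 in sham, and differed by 0.44 ± 0.097 (1.35-fold, adjusted p = 0.36). Neither gene's groups overlapped, and gamma replicate 2 was the highest array of both. Sox18, a transcription factor of vessel and lymphatic growth, lay at 8.25, 8.36 and 8.24 in gamma and at 7.77, 7.51, 7.84 and 8.11 in sham (0.48 ± 0.14).

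The other vessel genes at an unadjusted p under 0.05 were Slc9a3r2 and Eng. Slc9a3r2, a scaffold of membrane proteins, lay at 8.55, 8.44 and 8.45 in gamma and at 8.12, 8.14, 8.06 and 7.92 in sham (0.42 ± 0.13). Eng, endoglin, the co-receptor through which endothelium receives TGF-beta and BMP signals, lay at 8.99, 9.13 and 9.14 in gamma and at 8.56, 8.92, 8.75 and 8.74 in sham (0.35 ± 0.10). In both genes all gamma arrays were above all sham arrays, and Sox18, Slc9a3r2 and Eng each had an adjusted p of 0.798. Without sham replicate 1 the same 5 genes kept an unadjusted p under 0.05, with Tinagl1 at 0.49, Ephb4 at 0.41, Sox18 at 0.46, Slc9a3r2 at 0.44 and Eng at 0.29. Plvap, of the diaphragms of fenestrated vessels, also had all gamma arrays above all sham arrays, at 8.04, 8.01 and 8.14 in gamma and 7.11, 7.99, 7.94 and 7.90 in sham, but its difference of 0.33 ± 0.17 was 0.12 without sham replicate 1. As markers of endothelium at large, Cdh5, the cadherin of endothelial junctions, lay at 9.46, 9.58 and 9.47 in gamma and at 9.54, 9.62, 9.55 and 9.31 in sham, and Pecam1 at 8.66, 8.94 and 8.70 in gamma and at 8.34, 8.71, 8.63 and 8.80 in sham, and in both genes the groups overlapped.

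The promoters of Tinagl1, Ephb4 and Eng are shown because their gamma arrays all lay above sham and because ETS factors, which bind a GGAAG core, are known to govern vessel genes. Of the 32 vessel genes, 20 matched the RefSeq promoter table (GRCm38.p6), with 28 windows of 250 bases before to 50 after a start. The letters GGAAG on either strand were in 78.6% of these windows and in 71.4% of all 32851 windows, a share of like size. Capitals mark GGAAG or its reverse complement CTTCC.
Tinagl1 (chr4:130175073-130175372, minus strand): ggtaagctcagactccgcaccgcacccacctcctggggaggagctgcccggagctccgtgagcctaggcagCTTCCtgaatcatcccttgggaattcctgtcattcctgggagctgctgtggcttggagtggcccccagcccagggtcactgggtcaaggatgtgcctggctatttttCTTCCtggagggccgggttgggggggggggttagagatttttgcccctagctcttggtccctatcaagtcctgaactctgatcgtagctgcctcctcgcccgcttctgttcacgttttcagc
Ephb4 (chr5:137349859-137350158, plus strand): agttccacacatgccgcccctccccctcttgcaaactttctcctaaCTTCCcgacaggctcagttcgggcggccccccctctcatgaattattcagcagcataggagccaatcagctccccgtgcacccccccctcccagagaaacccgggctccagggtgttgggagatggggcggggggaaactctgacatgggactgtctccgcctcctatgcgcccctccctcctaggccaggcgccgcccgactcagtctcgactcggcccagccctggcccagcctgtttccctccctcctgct
Eng (chr2:32646345-32646644, plus strand): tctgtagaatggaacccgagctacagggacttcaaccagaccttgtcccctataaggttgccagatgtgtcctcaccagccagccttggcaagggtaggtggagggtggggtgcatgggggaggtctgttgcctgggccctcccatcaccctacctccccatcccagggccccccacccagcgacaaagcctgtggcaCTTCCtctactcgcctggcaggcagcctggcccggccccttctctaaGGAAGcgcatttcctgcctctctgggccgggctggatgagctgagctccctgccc

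The next genes by p on the higher side had an adjusted p of 0.798. They included Ddx11, a DNA helicase of sister chromatid cohesion, at 5.75, 6.41 and 5.96 in gamma and 5.45, 5.61, 5.49 and 5.61 in sham (0.50 ± 0.14, and 0.32 without gamma replicate 2). Actn1, alpha-actinin, which crosslinks actin at adhesions, lay at 9.08, 9.21 and 9.31 in gamma and at 8.01, 8.97, 8.64 and 9.02 in sham (0.54 ± 0.15). Its lowest sham array was replicate 1, without which the difference was 0.32, and its second probe set, with a mean level of 2.68, differed by 0.14. Hnrnpa0, an RNA-binding protein, differed by 0.53 ± 0.15, Lrrc14 by 0.41 ± 0.10 and Crtc3, a coactivator of CREB, by 0.39 ± 0.11. Of these 5 genes, Crtc3 alone had overlapping groups.

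On the lower side the smallest p belonged to Foxq1, a forkhead transcription factor, at 3.57, 3.91 and 3.77 in gamma and 4.31, 4.11, 4.39 and 4.31 in sham (−0.53 ± 0.15, 0.691-fold, adjusted p = 0.798 by limma). These are low levels, and its second probe set, with a mean of 3.44, differed by 0.16 in the other direction. Nr3c2, the mineralocorticoid receptor, lay at 6.28, 6.28 and 6.22 in gamma and at 6.55, 6.77, 6.81 and 6.59 in sham. The 3 gamma arrays were close together and all below sham, and the difference was −0.42 ± 0.12. Enpep, the aminopeptidase that cleaves angiotensin II, lay at 8.25, 7.94 and 8.34 in gamma and at 10.08, 8.57, 8.81 and 8.48 in sham (−0.81 ± 0.25). All gamma arrays were below all sham arrays, but sham replicate 1 was the highest, and the difference was −0.44 without it.

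Ugp2, which makes UDP-glucose for glycogen, lay at 8.33, 7.83 and 8.15 in gamma and at 9.10, 8.48, 8.92 and 8.41 in sham (−0.62 ± 0.19). Cyp2j6, a cytochrome P450, lay at 6.50, 6.41 and 6.31 in gamma and at 7.49, 6.69, 6.99 and 6.56 in sham (−0.53 ± 0.16). Dram1, a lysosomal protein and p53 target of autophagy, lay at 8.91, 8.57 and 8.66 in gamma and at 9.61, 9.09, 9.13 and 8.85 in sham (−0.46 ± 0.15). In each of these 3 genes sham replicate 1 was the highest array, Cyp2j6 differed by −0.34 without it, and Dram1's groups overlapped. Other genes low by the same rule were Apip (−0.36 ± 0.11), an enzyme of methionine salvage, Ccdc181 (−0.37 ± 0.11), Tmem220 (−0.33 ± 0.10), Tgds (−0.48 ± 0.15, and −0.31 without sham replicate 1), the proprotein convertase gene Pcsk6 (−0.39 ± 0.13) and the synaptic vesicle gene Syp (−0.54 ± 0.18). Pcsk6 and Syp had overlapping groups.

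**Figure D2:**
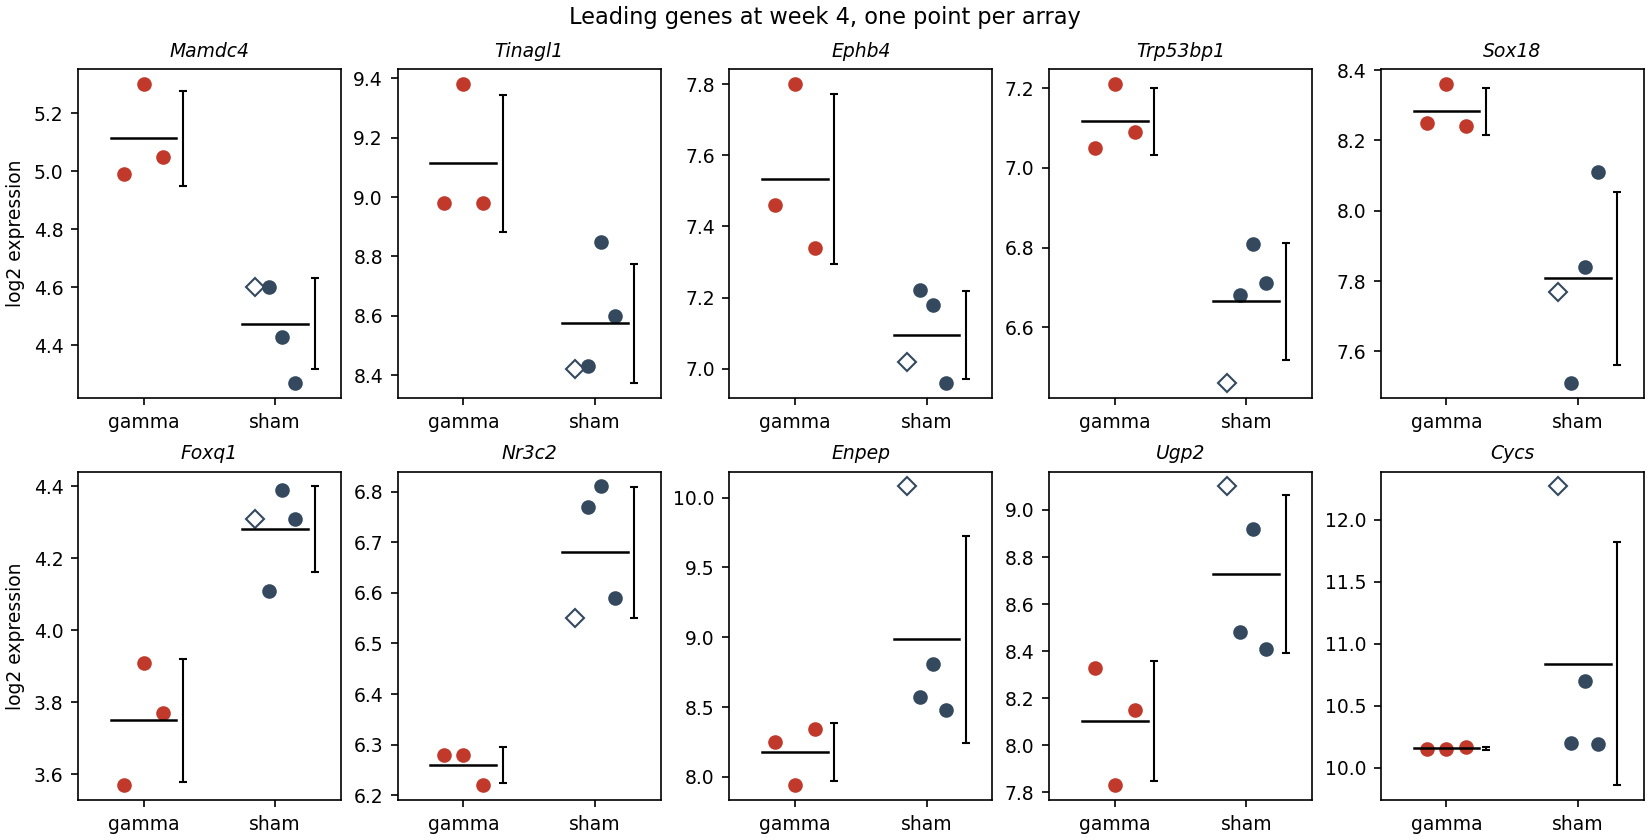
Log2 expression (y axes, a separate scale per panel) of 10 genes in the 3 gamma arrays (red) and 4 sham arrays (blue) of week 4, with the open diamond for sham replicate 1, horizontal lines for means and bars for SD. Groups do not overlap in any panel; in Enpep and Cycs the sham mean is drawn up by replicate 1, at 10.08 and 12.27.

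The largest differences among genes without overlap and at an unadjusted p under 0.05 had wider errors. Alox12e, an epidermal lipoxygenase, lay at 4.30, 6.51 and 5.17 in gamma and at 3.81, 4.30, 3.86 and 4.07 in sham (1.32 ± 0.57). Arg1, arginase, lay at 6.31, 6.69 and 6.75 in gamma and at 5.66, 6.11, 5.33 and 5.22 in sham (1.00 ± 0.39, 2.01-fold). Alox12e was carried by gamma replicate 2, whereas the 3 gamma arrays of Arg1 lay close together. Agtr1a, the angiotensin II receptor, lay at 8.54, 9.57 and 8.44 in gamma and at 8.30, 8.11, 8.15 and 8.08 in sham (0.69 ± 0.27). Zim1, an imprinted zinc finger gene, lay at 7.64, 8.02 and 7.89 in gamma and at 6.26, 7.29, 7.23 and 7.35 in sham (0.82 ± 0.24). Acot1 (0.86 ± 0.39), an acyl-CoA thioesterase, Irx1 (0.74 ± 0.26), a homeobox gene, Cited4 (0.71 ± 0.28) and the basal epithelial gene Trim29 (0.67 ± 0.31) had their highest value in gamma replicate 2, as did Agtr1a and Zim1. Without that array Alox12e differed by 0.73, Agtr1a by 0.33, Cited4 by 0.45 and Trim29 by 0.39.

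On the lower side Mlf1 lay at 3.63, 3.09 and 3.90 in gamma and at 4.16, 5.03, 6.22 and 3.95 in sham (−1.30 ± 0.57). Ppp1r3c, which targets a phosphatase to glycogen, lay at 6.43, 6.37 and 6.51 in gamma and at 7.70, 6.82, 8.36 and 6.63 in sham (−0.94 ± 0.43). In both genes the wider spread was in sham, and without sham replicate 3 the differences were −0.84 for Mlf1 and −0.62 for Ppp1r3c. Mycl, a MYC family transcription factor, lay at 5.36, 5.09 and 4.71 in gamma and at 5.76, 5.63, 5.68 and 5.71 in sham (−0.64 ± 0.23). Cdh9, a cadherin, lay at 4.24, 3.67 and 4.32 in gamma and at 4.70, 4.77, 5.04 and 4.71 in sham (−0.73 ± 0.26). For Mycl and Cdh9 the 4 sham arrays were close together and gamma varied. Zyg11a (−0.80 ± 0.38), Car1 (−0.76 ± 0.32, and −0.38 without sham replicate 1), a carbonic anhydrase, Lrtm1 (−0.71 ± 0.30) and Apold1 (−0.67 ± 0.30), an endothelial gene, completed this group. Each of these genes, lower or higher, had an adjusted p of 0.798 by limma.

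Of 30 tested p53 targets, 21 were above 0, with a median of 0.11 against 0.035 over all genes. None was higher at an unadjusted p under 0.05 and 1 was lower (against 1.9% of all genes). That gene was Ccng1, cyclin G1, at 10.33, 10.05 and 10.29 in gamma and 10.61, 10.44, 10.90 and 10.35 in sham (−0.35 ± 0.14, adjusted p = 0.798), with all gamma arrays below all sham arrays. Cdkn1a, the cell-cycle inhibitor p21, lay at 8.61, 8.90 and 8.53 in gamma and at 7.52, 8.91, 9.21 and 8.30 in sham. Its gamma arrays lay inside the sham range, and its difference of 0.20 ± 0.29 (95% interval −0.40 to 0.79) was −0.13 without sham replicate 1. Mdm2, the ligase that degrades p53, differed by 0.09 ± 0.10, the receptor gene Eda2r by −0.01 ± 0.20 and Phlda3, an inhibitor of AKT, by −0.15 ± 0.28. Phlda3 was 9.78 in sham replicate 1, against 8.15 to 8.34 in the other sham arrays, and its difference was 0.23 without that array.

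Of 28 tested genes of DNA break response and repair, 23 were above 0, with a median of 0.10 and of 0.03 without sham replicate 1. Trp53bp1 was the 1 member at an unadjusted p under 0.05. Atm, the kinase that signals breaks, lay between 6.96 and 7.36 in gamma and between 6.41 (replicate 1) and 7.19 in sham (0.26 ± 0.15). Brca2, a gene of homologous repair, differed by 0.22 ± 0.13, Rad54l, of the same pathway, by 0.29 ± 0.18, and Rif1, which acts with the Trp53bp1 product at breaks, by 0.24 ± 0.18. Atm and Rif1 differed by 0.10 and 0.01 without sham replicate 1, and the groups of all 4 genes overlapped. Among 22 cell-cycle genes, 17 were above 0 with a median of 0.23, and of 0.05 without sham replicate 1, and 0 had an unadjusted p under 0.05.

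Epithelial genes lay mostly above 0. Of 24 genes of basal epithelium, 23 were above 0 with a median of 0.39, and 6 were higher at an unadjusted p under 0.05 (against 3.66% of all genes). Krt17, a basal keratin, lay at 7.24, 8.08 and 6.54 in gamma and at 5.47, 6.64, 7.07 and 6.82 in sham (0.79 ± 0.38). Krt5, another, lay at 8.16, 8.62 and 7.79 in gamma and at 6.74, 7.90, 7.83 and 7.63 in sham (0.66 ± 0.30). In both genes gamma replicate 2 was the highest array and sham replicate 1 the lowest, and the groups overlapped. Without sham replicate 1 Krt17 differed by 0.44 and Krt5 by 0.40, the median was 0.19 and 0 of the 24 had an unadjusted p under 0.05, and without gamma replicate 2 the median was 0.17. With the mean levels of 4 tissue lists, this one among them, as covariates it was 0.09. The list score of an array, which averages how far each member lies from its 37-array mean, was 0.14, 0.62 and −0.07 in gamma and −0.77, 0.02, 0.02 and 0.01 in sham.

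Of 28 luminal genes, 22 were above 0 with a median of 0.33, which was 0.20 without sham replicate 1, 0.13 without gamma replicate 2 and −0.08 with the same tissue covariates. Foxa1, the factor through which the estrogen receptor reaches chromatin, lay at 8.22, 8.80 and 8.25 in gamma and at 7.95, 7.89, 7.76 and 7.51 in sham (0.65 ± 0.29). Cldn3, a tight junction claudin, lay at 7.56, 7.83 and 7.56 in gamma and at 6.78, 7.25, 7.07 and 7.12 in sham (0.59 ± 0.24). All gamma arrays lay above all sham arrays in both genes, and without sham replicate 1 the differences were 0.70 and 0.50. Tspan8, a tetraspanin, lay below sham, at 4.93, 4.75 and 4.79 in gamma and 5.24, 5.05, 5.63 and 5.17 in sham (−0.45 ± 0.19). The estrogen receptor gene Esr1 lay at 8.14, 7.94 and 7.93 in gamma and at 8.32, 8.09, 8.36 and 8.04 in sham (−0.20 ± 0.14), and the progesterone receptor gene Pgr differed by 0.17 ± 0.35, which was −0.10 without sham replicate 1.

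Several milk genes were highest in gamma replicate 2, though the casein gene Csn3 was not. Csn2, beta-casein, lay at 3.57, 8.11 and 4.34 in gamma and at 6.01, 3.75, 3.47 and 3.26 in sham (1.22 ± 0.68, and 1.85 without sham replicate 1). Slc34a2, a phosphate transporter of secretory epithelium, lay at 4.91, 6.36 and 5.50 in gamma and at 4.06, 4.95, 4.72 and 4.76 in sham (0.97 ± 0.33, unadjusted p = 0.00639). In gamma replicate 2 both were at their highest, and 11 of 13 tested milk genes were above 0, with a median of 0.45 that was 0.29 without that array, 0.24 without sham replicate 1 and −0.02 with the tissue covariates. Glycam1, counted here and made also by lymph node vessels, lay at 11.93, 8.02 and 11.13 in gamma and at 5.96, 11.81, 4.44 and 12.15 in sham, and was high in the same arrays as B cell genes.

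Of 22 genes of the Notch pathway, by which neighbouring cells set each other's fate, 18 were above 0 with a median of 0.16, and 5 were higher at an unadjusted p under 0.05 (against 3.66% of all genes). Among ligands, Dll1 lay at 6.33, 7.21 and 6.21 in gamma and at 5.49, 5.93, 6.34 and 6.28 in sham (0.58 ± 0.22), and Jag2 differed by 0.33 ± 0.16, which was 0.21 without sham replicate 1. Lfng, the glycosyltransferase that tunes which ligand the receptor answers, lay at 7.96, 7.89 and 8.26 in gamma and at 6.89, 7.77, 7.22 and 7.92 in sham (0.59 ± 0.23). The receptor gene Notch1 lay at 8.64, 9.03 and 8.69 in gamma and at 8.77, 8.45, 8.56 and 8.57 in sham (0.20 ± 0.13). Hey2, a target, differed by 0.42 ± 0.20, and Numb, the inhibitor of the receptor, by 0.29 ± 0.080. The groups of all 6 genes overlapped. Without sham replicate 1 the median was 0.11 and 1 of the 5, Numb, kept an unadjusted p under 0.05, at 0.25.

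Of 30 Wnt pathway genes, 21 were above 0 with a median of 0.18, which was 0.05 without sham replicate 1. Rnf43, the ligase that removes Wnt receptors, lay at 6.26, 6.43 and 6.31 in gamma and at 5.31, 6.20, 5.99 and 5.93 in sham (0.48 ± 0.22, and 0.30 without sham replicate 1), and the receptor gene Fzd7 differed by 0.48 ± 0.22. Lef1, a transcription factor of the pathway that T cells also express, lay at 7.06, 6.61 and 8.67 in gamma and at 4.74, 7.49, 4.15 and 7.92 in sham, and was low in the sham arrays that were low in Cd3e. Of 26 TGF-beta pathway genes, 17 were above 0 with a median of 0.09, which was 0.01 without sham replicate 1, and 2, Id2 (0.48 ± 0.18) and Eng, had an unadjusted p under 0.05. Id2, an inhibitor of differentiation factors, lay at 9.62, 9.88 and 9.88 in gamma and at 8.86, 9.52, 9.38 and 9.50 in sham. Tgfb1, the ligand that radiation is known to activate in this gland, lay at 8.73, 8.54 and 9.13 in gamma and at 7.64, 8.95, 8.55 and 8.80 in sham, a difference of 0.32 ± 0.20 that was 0.03 without sham replicate 1.

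Muscle and lymphocyte genes had the largest differences and none at an unadjusted p under 0.05. Of 28 skeletal muscle genes, 25 were below 0 with a median of −1.47. Casq1, the calcium store protein of fast muscle, lay at 4.84, 5.94 and 7.13 in gamma and at 4.74, 8.81, 10.20 and 8.07 in sham (−1.99 ± 1.3). Sham replicate 1 was the lowest of the 7 arrays and the other sham arrays were all above gamma. Without sham replicate 1, Casq1 differed by −3.06, the list median was −2.65 and 16 of 28 genes had an unadjusted p under 0.05, all lower (against 1.43% of all genes). Without sham replicate 3 the median was −0.65. The labels do not say how much muscle or lymph node was taken with each gland, and its part in the other results was not tested.

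Of 20 T and NK cell genes 19 were above 0 with a median of 0.90, and all 18 B cell genes were above 0 with a median of 0.61. The B cell gene Ms4a1 lay at 8.79, 5.83 and 8.27 in gamma and at 4.23, 8.72, 4.10 and 9.28 in sham (1.04 ± 1.4). Sham replicates 1 and 3 were low, sham replicates 2 and 4 lay at or above most gamma arrays, and the lymph node stroma genes were low in the same 2 sham arrays. Without both low arrays the medians were −0.28 for T and NK cell genes and −1.01 for B cell genes. Macrophage genes had a median of −0.06 over 25 genes, 8 of them above 0, and of −0.19 without sham replicate 1. Clec10a, a lectin of macrophages and dendritic cells, lay at 6.74, 6.86 and 6.20 in gamma and at 7.43, 7.03, 7.50 and 6.77 in sham (−0.59 ± 0.26). Mast cell genes had a median of −0.13 over 10 genes.

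**Figure D3:**
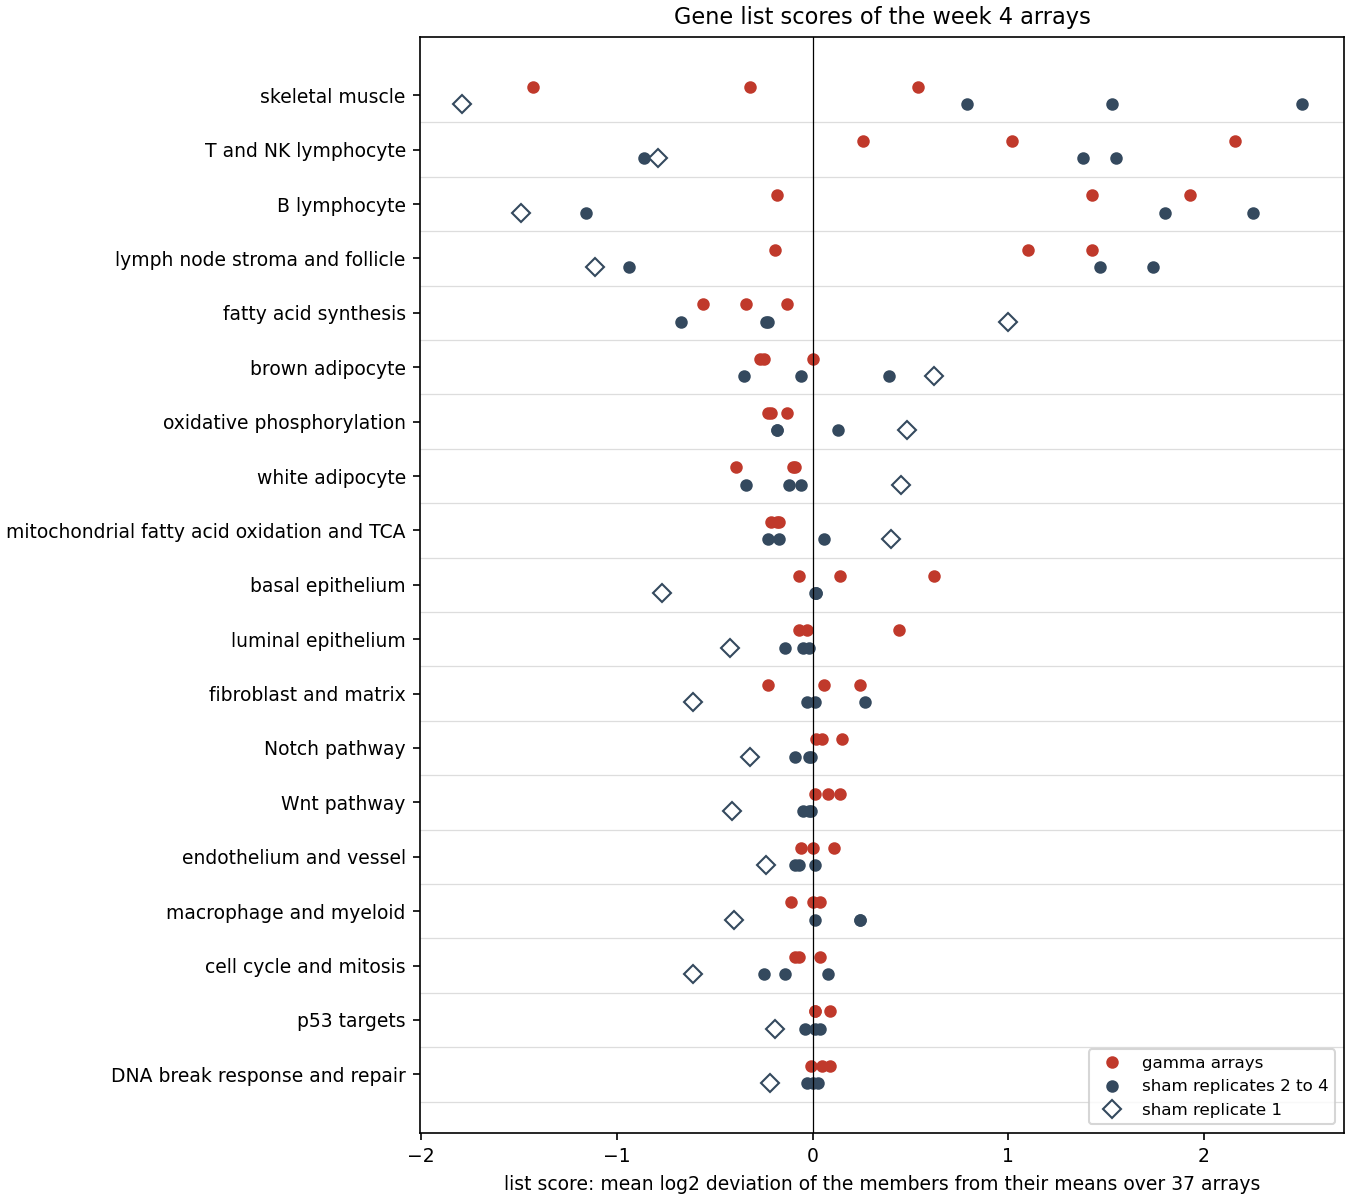
List score of each week 4 array (x axis, mean log2 distance of the list's members from each one's 37-array mean) for 19 gene lists, with the 3 gamma arrays in red above the 4 sham arrays in blue and the open diamond for sham replicate 1. Sham replicate 1 lies at an end of the sham group in most lists, at −1.79 for muscle and 1.00 for fatty acid synthesis.

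Genes of energy metabolism lay below 0 almost throughout, and sham replicate 1 was the highest array for most of those named. Of 45 tested genes of oxidative phosphorylation, which build the respiratory chain and ATP synthase, 44 were below 0 with a median of −0.24. At an unadjusted p under 0.05, 4 were lower (against 1.9% of all genes) and 0 higher. Cycs, cytochrome c, which carries electrons between complexes III and IV, lay at 10.15, 10.15 and 10.17 in gamma and at 12.27, 10.20, 10.70 and 10.19 in sham (−0.68 ± 0.29). All gamma arrays were below all sham arrays, but by little for sham replicates 2 and 4, and the difference was −0.21 without sham replicate 1. The second probe set of Cycs differed by −0.64, and the third, with a mean level of 4.42 against 10.52 for the first, by 0.55. Uqcrb, a subunit of complex III, lay at 10.08, 9.71 and 10.08 in gamma and at 11.43, 10.03, 10.45 and 10.17 in sham (−0.57 ± 0.21, and −0.27 without sham replicate 1). Its groups overlapped, and Ndufb8 (−0.45 ± 0.21) and Ndufa5 (−0.32 ± 0.14), subunits of complex I, were highest in sham replicate 1 as well, and differed by −0.25 and −0.12 without it.

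Without sham replicate 1 the median of the oxidative phosphorylation genes was −0.13, with 7 of 45 above 0 and 0 at an unadjusted p under 0.05. With the tissue covariates it was −0.05, but a covariate, the brown adipocyte list, itself holds respiratory chain genes such as Cox7a1. That value therefore cannot set tissue mix apart from a shift of these genes. Set directly against the Si arrays of week 4, with no sham array, the median was −0.26 for 30 cGy Si and −0.23 for 10 cGy Si, gamma minus Si. In the same 2 contrasts the medians were 1.71 and 1.53 for T and NK cell genes and −0.16 and −1.49 for muscle genes. They were 0 and 0.05 for brown adipocyte genes. Tissue mix thus differed between gamma and Si too, and these contrasts cannot set it apart. The oxidative phosphorylation score was −0.13, −0.21 and −0.23 in gamma and 0.48, −0.18, 0.13 and −0.18 in sham. Sham replicates 1 and 3 thus lay above gamma and sham replicates 2 and 4 beside it. The brown adipocyte score was −0.25, −0.27 and 0 in gamma and 0.62, −0.06, 0.39 and −0.35 in sham, and its part was not tested. All 23 genes of mitochondrial fatty acid oxidation and the TCA cycle were below 0, with a median of −0.20 and of −0.07 without sham replicate 1. Suclg1, of succinyl-CoA ligase, lay at 8.22, 8.05 and 8.08 in gamma and at 9.05, 8.26, 8.71 and 8.21 in sham (−0.44 ± 0.16, and −0.28 without sham replicate 1).

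Promoters of 4 oxidative phosphorylation genes are shown because 44 of the 45 members lay on the same side of 0, and because the factor NRF1 is known to drive many genes of the respiratory chain. Of the 45 genes, 35 matched the RefSeq table (GRCm38.p6), with 39 windows. The NRF1 motif, GCGCA, any base and GCGC, searched on both strands, was in 28.2% of these windows, in 10 genes, and in 4.6% of all 32851 windows. These shares follow from which genes the list holds, use no expression value and say nothing of an effect of gamma. Differences of the 10 genes ran between −0.32 for Ndufa5 and −0.08 for Ndufa8, inside the range of the list, and Cycs had no exact match in its window. Capitals mark these letters or their reverse complement.
Ndufa5 (chr6:24527641-24527940, minus strand): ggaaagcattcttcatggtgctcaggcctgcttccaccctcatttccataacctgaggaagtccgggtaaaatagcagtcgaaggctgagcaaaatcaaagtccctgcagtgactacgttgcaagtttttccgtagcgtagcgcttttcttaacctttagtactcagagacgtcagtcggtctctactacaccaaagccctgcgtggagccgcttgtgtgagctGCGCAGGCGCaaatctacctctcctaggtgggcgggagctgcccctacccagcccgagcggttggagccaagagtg
Uqcrc1 (chr9:108936398-108936697, plus strand): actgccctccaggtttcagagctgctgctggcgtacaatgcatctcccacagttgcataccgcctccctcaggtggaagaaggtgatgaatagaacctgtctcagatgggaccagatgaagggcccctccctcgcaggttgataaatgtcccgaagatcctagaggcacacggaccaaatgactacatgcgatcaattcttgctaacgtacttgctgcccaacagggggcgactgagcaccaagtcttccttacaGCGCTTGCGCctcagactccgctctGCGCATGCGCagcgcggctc
Sdha (chr13:74350191-74350490, minus strand): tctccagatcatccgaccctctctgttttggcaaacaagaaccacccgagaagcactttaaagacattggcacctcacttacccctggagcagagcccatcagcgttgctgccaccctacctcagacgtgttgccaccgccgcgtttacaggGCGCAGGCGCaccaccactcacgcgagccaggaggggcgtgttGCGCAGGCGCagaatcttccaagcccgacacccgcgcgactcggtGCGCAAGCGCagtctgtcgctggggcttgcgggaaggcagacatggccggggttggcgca
Cycs (chr6:50566520-50566819, minus strand): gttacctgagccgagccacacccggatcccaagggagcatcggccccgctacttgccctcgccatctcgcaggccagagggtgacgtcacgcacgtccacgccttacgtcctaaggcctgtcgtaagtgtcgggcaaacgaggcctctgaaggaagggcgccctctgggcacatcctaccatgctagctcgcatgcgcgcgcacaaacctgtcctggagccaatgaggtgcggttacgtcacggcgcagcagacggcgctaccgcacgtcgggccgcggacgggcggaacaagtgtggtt

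Genes of fat synthesis and fat cells also differed less without sham replicate 1. Of 25 genes of fatty acid synthesis, 24 were below 0 with a median of −0.25, and without sham replicate 1 the median was 0.03. Elovl6, an elongase, lay at 9.38, 8.17 and 9.77 in gamma and at 12.07, 9.49, 9.69 and 8.37 in sham, and its difference of −0.80 ± 0.64 was −0.08 without sham replicate 1. Sterol synthesis genes had a median of −0.18, and of −0.03 without that array. Of 12 brown adipocyte genes, 9 were below 0 with a median of −0.25, which was −0.07 without it. Cox7a1, a subunit of complex IV in muscle and brown fat, lay at 5.21, 5.16 and 5.76 in gamma and at 7.52, 6.14, 7.55 and 5.55 in sham (−1.31 ± 0.58, and −1.04 without sham replicate 1). White adipocyte genes had a median of −0.09 over 21 genes, and of −0.01 without it.

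Among 27 genes of oxidative stress and detoxification, 22 were below 0 with a median of −0.10, and 3 were lower at an unadjusted p under 0.05 (against 1.9% of all genes). Gsta3, a glutathione S-transferase, lay at 8.60, 7.67 and 8.35 in gamma and at 8.63, 8.68, 8.85 and 8.44 in sham (−0.45 ± 0.18, and −0.45 without sham replicate 1). Gsta4 differed by −0.42 ± 0.19 (−0.23 without that array) and glutathione reductase, Gsr, by −0.24 ± 0.12. The groups of the 3 genes overlapped. Gclc, which makes the precursor of glutathione, differed by 0.25 ± 0.19.

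The remaining lists had medians near 0 or near 0 without sham replicate 1. Medians were 0.00 for interferon response, circadian clock and heat shock genes, 0.05 for ribosomal proteins and 0.03 for Schwann cells. They were 0.06 for endoplasmic reticulum stress genes, for glucocorticoid response genes and for hormone receptors and their targets. Without sham replicate 1 the circadian clock median was 0.13, farther from 0, with 12 of 17 genes above 0. Fibroblast genes had a median of 0.12, immediate early genes of 0.11 and senescence genes of 0.09, which were −0.06, −0.08 and −0.06 without sham replicate 1. Ccnd1, cyclin D1, a target of hormones in this gland, lay at 9.11, 9.22 and 8.87 in gamma and at 7.87, 8.77, 8.73 and 8.61 in sham (0.58 ± 0.26, and 0.37 without sham replicate 1). Bhlhe40, a repressor of the clock, lay at 7.47, 7.02 and 7.03 in gamma and at 6.65, 6.83, 6.63 and 6.72 in sham (0.46 ± 0.20). In both genes all gamma arrays were above all sham arrays. In the pericyte and smooth muscle list, with a median of 0.21 over 18 genes and of 0.07 without sham replicate 1, Mylk, the kinase of myosin light chain, lay at 6.47, 7.13 and 6.46 in gamma and at 5.99, 6.39, 6.42 and 6.38 in sham (0.39 ± 0.17).

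**Figure D4:**
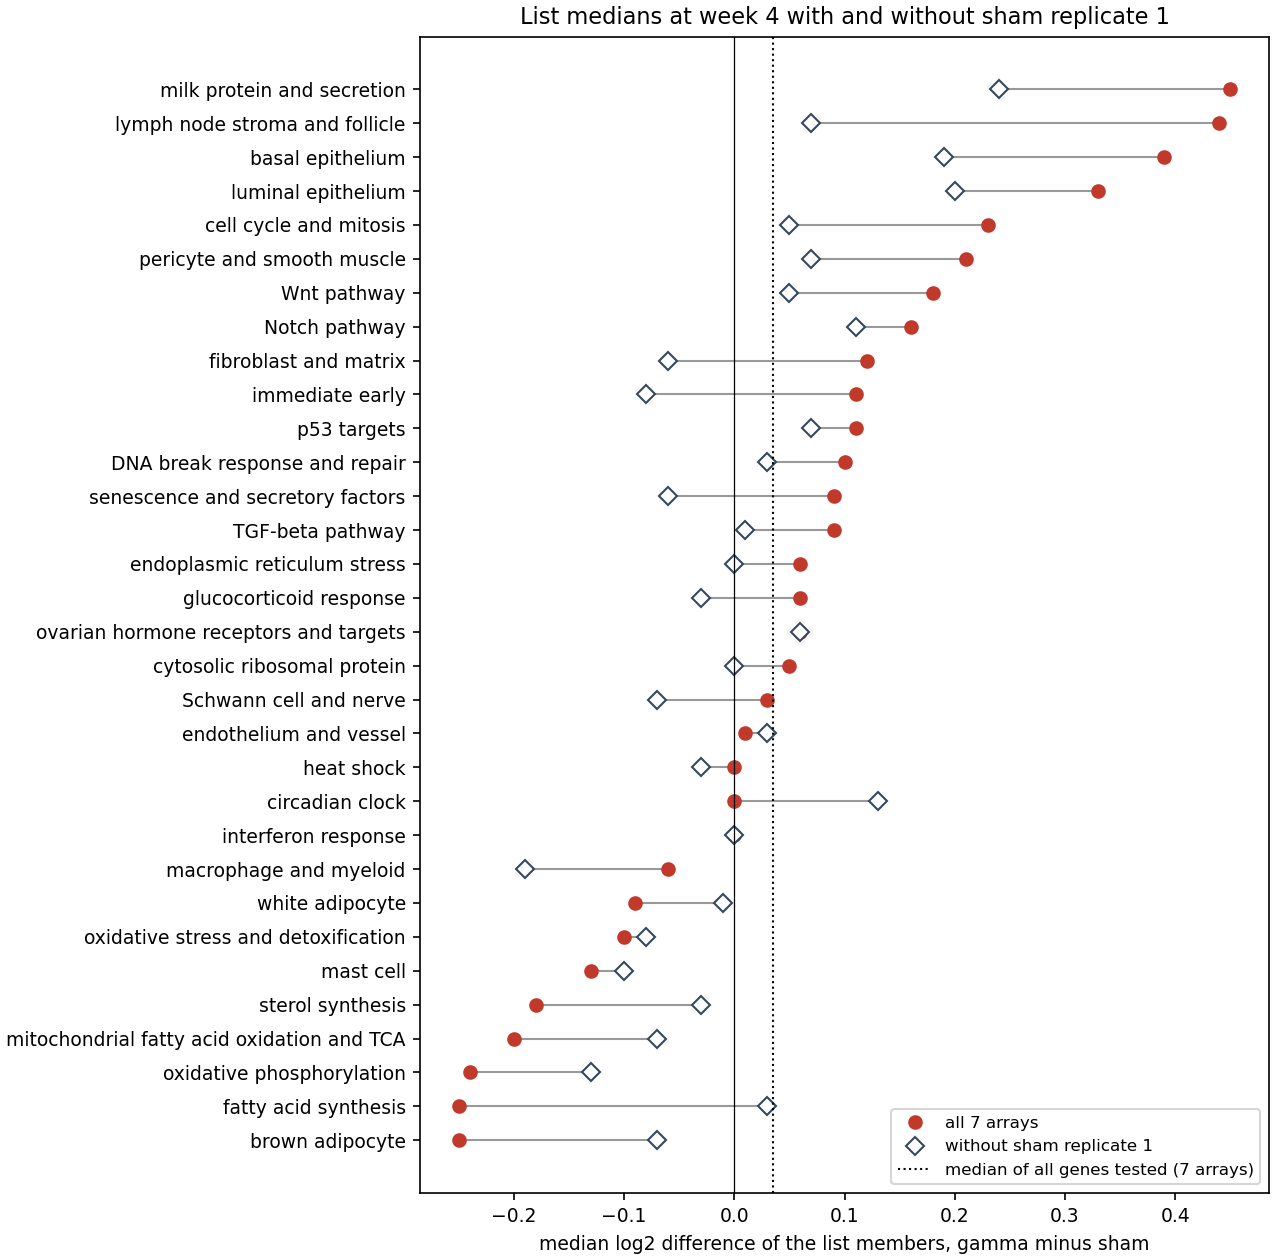
Median log2 difference, gamma minus sham at week 4 (x axis), of the tested members of 32 gene lists, with all 7 arrays (red) and without sham replicate 1 (open diamonds). The dotted line is the median of all genes, 0.035, most medians lie nearer to 0 without that array, and muscle, T and NK cell and B cell genes, at −1.47, 0.90 and 0.61, are left off.

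The gamma effect at week 4 was set against that at weeks 1 and 12, each against its own sham arrays. In limma's contrasts of the effects, 0 of 13174 genes (0%) were called for week 4 minus week 1, with 1201 at an unadjusted p under 0.05, and 0 (0%) for week 4 minus week 12, with 514. Tinagl1 differed by 0.61 ± 0.13 at week 1 (adjusted p = 0.0799), 0.54 ± 0.12 at week 4 and −0.14 ± 0.13 at week 12. Foxq1 differed by −0.53 ± 0.16 at week 1, −0.53 ± 0.15 at week 4 and −0.10 ± 0.16 at week 12, and Slc9a3r2 by 0.59 ± 0.14, 0.42 ± 0.13 and 0.20 ± 0.14. These 3 genes had like values at weeks 1 and 4. Mamdc4 differed by 0.03 ± 0.14 at week 1, 0.64 ± 0.13 at week 4 and 0.04 ± 0.14 at week 12, Ephb4 by 0.15 ± 0.10, 0.44 ± 0.097 and 0.07 ± 0.10, and Trp53bp1 by −0.06 ± 0.11, 0.45 ± 0.10 and 0.09 ± 0.11. Week 4 minus week 1 was 0.61 ± 0.19 for Mamdc4 (adjusted p = 0.477) and 0.52 ± 0.15 for Trp53bp1 (adjusted p = 0.462). The level of sham enters these differences. For Mamdc4, Tinagl1, Ephb4, Trp53bp1 and Eng the sham mean of week 4 was the lowest of the 12 group means. Gamma at week 4 was the highest group mean for Mamdc4 (5.12) and Trp53bp1 (7.12). For Ephb4 it was 7.53, against 7.60 in gamma and 7.45 in sham at week 1.

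Genes called at week 1 had no like value at week 4. Psrc1, Ace and Fam102b, the 3 genes called at week 1 (adjusted p = 0.0251 each), were at 1.28 ± 0.23, 0.70 ± 0.13 and 0.71 ± 0.13 there. At week 4 they were at 0.05 ± 0.21, −0.03 ± 0.12 and 0.04 ± 0.12. Week 4 minus week 1 was −1.22 ± 0.31 for Psrc1 (adjusted p = 0.462), −0.73 ± 0.17 for Ace (adjusted p = 0.35) and −0.67 ± 0.17 for Fam102b (adjusted p = 0.462), so that none passed the test of the difference. Cdkn1a differed by 0.99 ± 0.31 at week 1, 0.20 ± 0.29 at week 4 and −0.14 ± 0.31 at week 12. Ccng1 was at 0.33 ± 0.15, −0.35 ± 0.14 and 0.33 ± 0.15 at the same weeks, and Eda2r at 0.84 ± 0.21, −0.01 ± 0.20 and 0.26 ± 0.21. The median of the oxidative phosphorylation genes was 0.05 at week 1, −0.24 at week 4 and −0.05 at week 12.

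**Figure D5:**
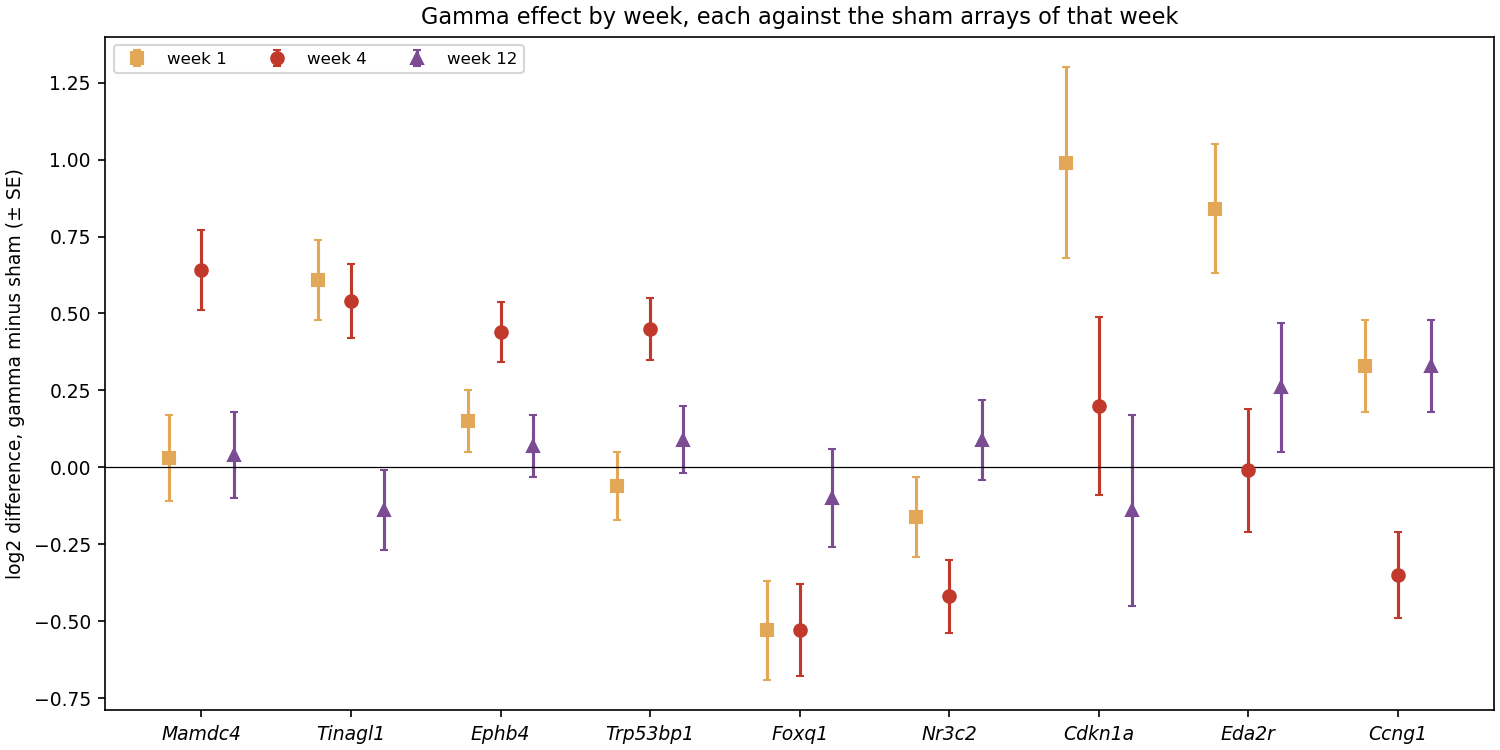
Log2 difference ± SE, gamma minus the sham arrays of the same week (y axis), of 9 genes at week 1 (squares), week 4 (circles) and week 12 (triangles). Tinagl1 and Foxq1 have like values at weeks 1 and 4. Mamdc4, Ephb4 and Trp53bp1 have their largest difference at week 4, where the sham mean of each was its lowest of the 12 groups. Cdkn1a and Eda2r have theirs at week 1, and no difference between weeks passed the test.

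Gamma was also set directly against the Si arrays of week 4, 3 arrays each, without the sham arrays. Against 30 cGy Si, limma called 1 of 13174 genes (0.00759%), Scin, scinderin, a protein that severs actin filaments. It lay at 4.53, 4.40 and 4.58 in gamma and at 5.38, 5.33 and 6.13 in Si, and differed by −1.11 ± 0.19, gamma minus Si (adjusted p = 0.0274), with no overlap. Sham arrays lay at 4.60, 4.91, 4.66 and 4.96 and 10 cGy Si arrays at 5.12, 5.02 and 4.91. All gamma arrays thus lay below all sham arrays, the nearest at 4.58 against 4.60, and the 30 cGy Si arrays stood above both. Without any 1 of the 3 gamma arrays the call was lost, with values between −1.15 and −1.05, and it was lost without Si replicate 3, the highest array, at −0.85 (adjusted p = 0.31), and in a fit of the 13 week 4 arrays alone (−1.11, adjusted p = 0.173). Against 10 cGy Si, 0 genes passed (0%), and the unadjusted p was under 0.05 for 727. The doses differ, so these contrasts set 2 treatments side by side and not 2 kinds of radiation at a matched dose.

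Against the same 4 sham arrays, which these comparisons share with gamma, Mamdc4, Ephb4, Tinagl1 and Sox18 had smaller values after Si than after gamma. Mamdc4 was at 0.64 ± 0.13 after gamma, 0.08 ± 0.13 after 30 cGy Si and 0.25 ± 0.13 after 10 cGy Si, and Ephb4 at 0.44 ± 0.097, 0.08 ± 0.097 and 0.08 ± 0.097. Tinagl1 was at 0.54 ± 0.12, 0.11 ± 0.12 and 0.25 ± 0.12, and Sox18 at 0.48 ± 0.14, −0.06 ± 0.14 and 0.11 ± 0.14. This did not hold for all genes named by rank, and some were as far from sham after 30 cGy Si as after gamma, or farther. Mean levels in gamma, 30 cGy Si and sham were 5.48, 5.71 and 4.62 for Acot1, 7.93, 7.81 and 8.32 for Pcsk6, and 6.14, 6.11 and 5.6 for Hnrnpa0. Gamma minus 30 cGy Si was 0.36 ± 0.10 for Ephb4 (adjusted p = 0.431) and 0.56 ± 0.14 for Mamdc4 (adjusted p = 0.385), so that these differences did not pass the test. Among cell-cycle genes the median was 0.23 after gamma, 0.83 after 30 cGy Si and 0.08 after 10 cGy Si. Of the 22 genes, 0 were at an unadjusted p under 0.05 after gamma and 16 after 30 cGy Si, where 8.08% of all genes were. The median of basal epithelium genes was 0.39, 0.34 and 0.19, and that of oxidative phosphorylation genes −0.24, −0.02 and −0.02, after gamma, 30 cGy Si and 10 cGy Si.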

How the data were processed

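Total RNA of intact inguinal mammary glands was hybridised to Affymetrix arrays, with 1 array a sample. The authors deposited log2 expression values, made with RMA in oligo per the submitters' processing notes, with no versions given in the sources used here. RMA corrects background, quantile-normalizes and summarises probes, so that group differences tend to be compressed at low levels. The table held 35556 probe sets on 37 arrays. Of these, 21218 had 1 gene symbol, 1881 had several and 12457 were not listed in the annotation. The probe set with the highest mean over the 37 arrays stood for its gene, which gave 18820 genes, and the 13174 with a mean above the 30th percentile (4.04) were tested.

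Groups were taken from the titles. One model of 12 group means was fitted to all 37 arrays with limma 3.58.1 in R 4.3.3, with 25 residual and 3.4 prior degrees of freedom, and p-values were adjusted over all genes tested (Benjamini-Hochberg). A gene was called at an adjusted p under 0.05. The test was tried first on simulated data. The number of arrays limits the precision.

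Since 0 genes were called, genes were named by rule: per direction the 12 with the smallest p, and the 10 with the largest difference among those at an unadjusted p under 0.05 whose arrays did not overlap; 16 followed genes; and up to 6 members per list with the largest difference. Predicted genes, small RNAs and receptor segments were passed over. Tspan8, Plvap, Csn3, Ndufa5, Ndufa8, Sdha and Uqcrc1 fall outside the rule and were chosen after their values were seen, and Scin, Psrc1, Ace and Fam102b were called in other contrasts. The comparison, its genes and the lists were chosen with earlier results of these data known. Lists are described by counts and medians, with no test. Covariates for tissue mix were the mean levels of the muscle, lymphocyte, epithelial and brown adipocyte lists. Alternatives changed the filter, the probe set rule, the normalization, array weights, the replicate block, the covariates and the arrays included.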

Additional observations from a re-analysis of the deposited data

Results flagged for a closer look

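Sham replicate 1 of week 4 stood apart from the other 3 sham arrays in 9 of the values described. Chance alone gives such a gap, by any 1 of the 4 arrays, in about 1 in 20 groups. Many values were described, so chance alone would give some. Its level was 5.95 for Ccdc181, against 5.68 in the nearest sham array, 6.66 for Tgds (nearest 6.03), 5.95 for Zyg11a (nearest 5.39), 6.22 for Car1 (nearest 4.79) and 9.78 for Phlda3 (nearest 8.34). For Zim1 it was below the others, at 6.26 (nearest 7.23). Its list score was 0.24 for sterol synthesis (nearest −0.26), −0.77 for basal epithelium (nearest 0.01) and −0.41 for the Wnt pathway (nearest −0.05). By the same measure it stood apart in 674 of the genes tested (5.12%), against 69 (0.524%), 119 (0.903%) and 77 (0.584%) for sham replicates 2, 3 and 4. The 1 in 20 counts all 4 arrays together, so the share that chance gives any 1 given array is smaller. Without it Ccdc181 differed by −0.30, Tgds by −0.31, Zim1 by 0.56, Zyg11a by −0.65 and Car1 by −0.38, in the same directions as with it, and Phlda3 by 0.23 in the opposite one. What sets this array apart was not tested.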

How the results depend on the processing

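The count of 0 genes called between gamma and sham at week 4 was the same in all 18 alternatives. The smallest adjusted p by limma, 0.36 in the main fit, ran between 0.161 without gamma replicate 2 and 0.999 with covariates for tissue mix. It was 0.977 in the fit of the 7 arrays alone and 0.881 in that of the 13 week 4 arrays. The main fit takes its spread from all 12 groups. The 42 genes named by rank kept their direction in each alternative in which they were tested. With covariates for tissue mix, 14 of the 42 differed by less than before by over 1.5 times, among them Mlf1 (−0.29), Ppp1r3c (−0.17), Lrtm1 (−0.19), Car1 (−0.21), Cycs (−0.21), Ugp2 (−0.29), Actn1 (0.27) and Trim29 (0.19). The count at an unadjusted p under 0.05, 732, was 403 with array weights, 371 with covariates for tissue mix, 277 in a fit of the 7 arrays alone and 286 without sham replicates 1 and 3. Leaving out 1 array at a time it ran between 421 (sham replicate 1 left out) and 1318 (sham replicate 4 left out), with 1221 when sham replicate 2 was. Of the 421, 232 were among the 732. The count of genes without overlap, 517, was 327 with the filter at the 50th percentile and 2077 without sham replicates 1 and 3, and ran between 938 and 1505 with 1 array left out, where fewer arrays are compared. Same-numbered gamma and sham arrays deviated with correlations of 0.12, −0.37 and −0.24, and unlike-numbered ones with correlations between −0.19 and 0.41. So few arrays cannot decide whether the numbers pair the samples. With the replicate block 1303 genes had an unadjusted p under 0.05, 2 were called against 30 cGy Si (Scin and Agxt2), and Eda2r differed by 0.07.

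For week 4 minus week 1, array weights gave 1 call (Usp43), and leaving out 1 array gave 0 to 1 (Pcsk6, without sham replicate 4). For week 4 minus week 12 that range was also 0 to 1 (Il33, without sham replicate 1). Against 30 cGy Si there were 2 calls with no filter (Scin and Sftpd), 0 with the filter at the 50th percentile, where Scin was not tested, 11 with array weights, and 0 to 2 with 1 array left out. A fit of the 13 week 4 arrays gave 0. That fit and the leave-outs of Si arrays were chosen after seeing the data. Against 10 cGy Si, array weights gave 1 call (Fyb2).

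Among followed genes, 7 changed sign. Cdkn1a was −0.08 with array weights and ran between −0.13 and 0.44 with 1 array left out. Phlda3 was 0.27 with array weights, 0.23 with tissue covariates and 0.28 without sham replicates 1 and 3, and ran between −0.32 and 0.23. Eda2r was 0.06, 0.07 and 0.02 in the same settings, and ran between −0.15 and 0.11. Pgr was −0.05, −0.04 and −0.17, and ran between −0.10 and 0.31. Krt8 was −0.13 and Krt18 −0.17 with tissue covariates, and Krt18 ran between −0.14 and 0.36. Tgfb1 was −0.07 without sham replicates 1 and 3. The cause of these changes was not tested. Of 630 list medians under alternatives, 12 moved by more than the spread between arrays, in 7 lists.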
